A study of Mus musculus with 6 samples.

Results

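Ragulator and the Rag GTPases are the lysosomal machinery that places mTORC1, the kinase complex that couples growth to nutrients, on the lysosome surface. 9 genes of this machinery were followed in brains of wild-type (WT) and Sgo1-/+ mice, among the 38087 genes of the deposited table. They are the Ragulator subunits Lamtor1, Lamtor2, Lamtor3 and Lamtor4, the GTPases Rraga, Rragb, Rragc and Rragd, and a further entry that the table spells in capitals, LAMTOR3, which is a second copy of Lamtor3 elsewhere in the genome. LAMTOR3 was chosen by its pattern of normalized counts in these same 6 libraries, so its values are given as a description with no test. The other 8 were chosen by name, as the parent of that copy and the complexes it belongs to. 8 of the 9 were found by their symbol in the table, and Lamtor4, which the table lists under an older name (0910001L09Rik), was found by its Ensembl identifier (ENSMUSG00000050552).

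The 6 libraries came from 3 WT and 3 Sgo1-/+ mice, each from a mouse of its own. All 6 mice were 24 months old, on a C57BL6 background and untreated. By the authors' description, the RNA came from frozen cerebrum with cortex and hippocampus, dissected without olfactory bulb, cerebellum and medulla. Sgo1-/+ mice carry 1 disrupted copy of Sgo1 in every cell, the gene for shugoshin 1, which protects the cohesin that holds sister chromatids together. WT replicate 1 and Sgo1-/+ replicate 2 were male and the other mice female, and all WT libraries were sequenced in run 258 and all Sgo1-/+ libraries in run 259, so that genotype and run cannot be told apart. Total estimated counts lay between 11123917 and 12505561 per library. Normalized counts below are estimated counts scaled to the same effective library size, and a log2 fold change is Sgo1-/+ against WT, with its standard error (SE) from edgeR's quasi-likelihood fit over 16337 genes.

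The targeted gene could not serve as a check of the genotype. Sgo1, listed under its older name Sgol1, had 0, 7 and 0 estimated counts in the WT libraries (replicates 1, 2 and 3 in this order, here and below) and 4, 2 and 0 in the Sgo1-/+ libraries, where 5 of the 6 libraries lay within 1 count of the limit of 3 that a count of 0 allows, or under it. WT replicate 1 stood apart from the other libraries, with a mean correlation of 0.932 with the other 5 against 0.964 to 0.968 for the rest. It had a summed level of cerebellar granule cell markers of 19645 normalized counts against 1404 to 2593 elsewhere. For Purkinje cell markers the level was 41792 against 13124 to 17054, and for medulla and brain stem markers 3654 against 494 to 758. Cortex markers stood at 4217 against 13504 to 17133. Olfactory bulb markers stood at 2719 in WT replicate 1, at 5461 and 6276 in WT replicates 2 and 3, and at 3844 to 4884 in Sgo1-/+ libraries. The described dissection leaves out olfactory bulb, cerebellum and medulla, and whether any library departed from it was not tested. Because WT replicate 1 stood apart, values without it are given beside many of the results. Without it, the median log2 fold change of the olfactory bulb markers was -2.14.

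By way of background, Lamtor3 is also known as MP1. With Lamtor2 (p14) it forms a pair that Lamtor1 (p18), a protein anchored in the lysosomal membrane by lipids, wraps around, and Lamtor4 and Lamtor5 form a second such pair. The Rag GTPases work as heterodimers of RagA or RagB (Rraga, Rragb) with RagC or RagD (Rragc, Rragd), and when amino acids are plentiful they recruit mTORC1 to Ragulator. MP1 with p14 was first described as a scaffold of MAP kinase signalling on late endosomes. A retrocopy is a copy of a gene made by reverse transcription of its spliced messenger RNA and inserted elsewhere, which is why it lacks the parent's introns and usually its promoter.

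The parent Lamtor3 (ENSMUSG00000091512) lies at chr3:137918526-137928765 on the plus strand of mm10. LAMTOR3 (ENSMUSG00000094685) lies at chr7:104949176-104950441 on the minus strand, and GENCODE M21, an annotation of the same genome build, names it Gm5900 and calls it a processed pseudogene of 1 exon of 375 bases, where the table lists it as protein coding with a span of 1266 bases. That exon is as long as the coding sequence of Lamtor3 and differs from it at 2 of 375 positions, an identity of 99.5%. Counted from the A of the start codon, the differences are C111T and G336A, each at the last base of a codon (37 and 112), and neither changes the amino acid. The reading frame of the copy is thus open over all 124 codons. The stretches around both differences are shown because they are the places within the coding sequence where a read can tell the 2 genes apart. Capitals mark the base that differs, and the stretches run from base 66 to 156 and from base 291 to 375 of the coding sequence.
Lamtor3 bases 66 to 156: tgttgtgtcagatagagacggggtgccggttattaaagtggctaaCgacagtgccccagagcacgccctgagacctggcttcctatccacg
LAMTOR3 bases 66 to 156: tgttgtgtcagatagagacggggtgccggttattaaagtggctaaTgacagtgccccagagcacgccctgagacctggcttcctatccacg
Lamtor3 bases 291 to 375: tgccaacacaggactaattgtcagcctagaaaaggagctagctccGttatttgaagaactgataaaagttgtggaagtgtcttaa
LAMTOR3 bases 291 to 375: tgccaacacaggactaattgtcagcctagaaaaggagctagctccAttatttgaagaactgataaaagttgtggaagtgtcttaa
Between the differences the sequences are identical for 224 bases, and a read lying wholly inside that run matches both genes equally well. How the authors' counting shared out such reads is not given in the sources used here. The untranslated parts of the 2 genes were not compared.

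The retrocopy was high in every WT library and low in every Sgo1-/+ library. LAMTOR3 had 73.3, 57.9 and 42.3 normalized counts in the WT and 5.46, 6.59 and 9.66 in the Sgo1-/+ libraries. The groups did not overlap, and the lowest WT library stood above the highest Sgo1-/+ library by a wide margin. The WT mean was 57.8 ± 15.5 (SD, n = 3) and the Sgo1-/+ mean 7.24 ± 2.17 (SD, n = 3), a ratio of 0.125 and a log2 fold change of -3.01 (SE 0.36). These are small numbers of reads, since the Sgo1-/+ libraries held 5.5, 6.5 and 9.44 estimated counts and the WT libraries 72.8, 60.8 and 41.7. Leaving out WT replicate 1 gave a log2 fold change of -2.81. As this pattern is what the gene was chosen by, nothing is read from its size.

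The parent showed no such split. Lamtor3 had 440, 415 and 452 normalized counts in WT and 395, 402 and 454 in Sgo1-/+ libraries, with overlapping groups. Its means were 436 ± 19.1 and 417 ± 32.0 (SD, n = 3 each), a log2 fold change of -0.07 (SE 0.111, 95% interval -0.33 to 0.20). That difference did not pass the test (edgeR quasi-likelihood, Benjamini-Hochberg adjusted p = 0.9999, unadjusted p = 0.575), nor an exact two-sided permutation test (p = 0.5, where the smallest p that 3 against 3 allows is 0.1).

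Because the 2 genes share nearly all of their coding sequence, they were also summed. The retrocopy made up 14.3, 12.3 and 8.54% of the summed normalized counts of both in WT libraries, and 1.36, 1.61 and 2.09% in Sgo1-/+ libraries, that is 11.7 ± 2.91% and 1.69 ± 0.366% (SD, n = 3 each). The sum of both was 513, 473 and 495 in WT and 400, 409 and 463 in Sgo1-/+ libraries, so that the highest Sgo1-/+ library lay below the lowest WT library in a sum that includes the values the retrocopy was chosen by. Of the difference in mean sum, -69.4 normalized counts, the retrocopy gave -50.6 and the parent -18.8. The parent's mean was not higher in the group where the retrocopy was low, and whether the counting moved reads between the 2 genes was not tested.

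**Figure D1:**
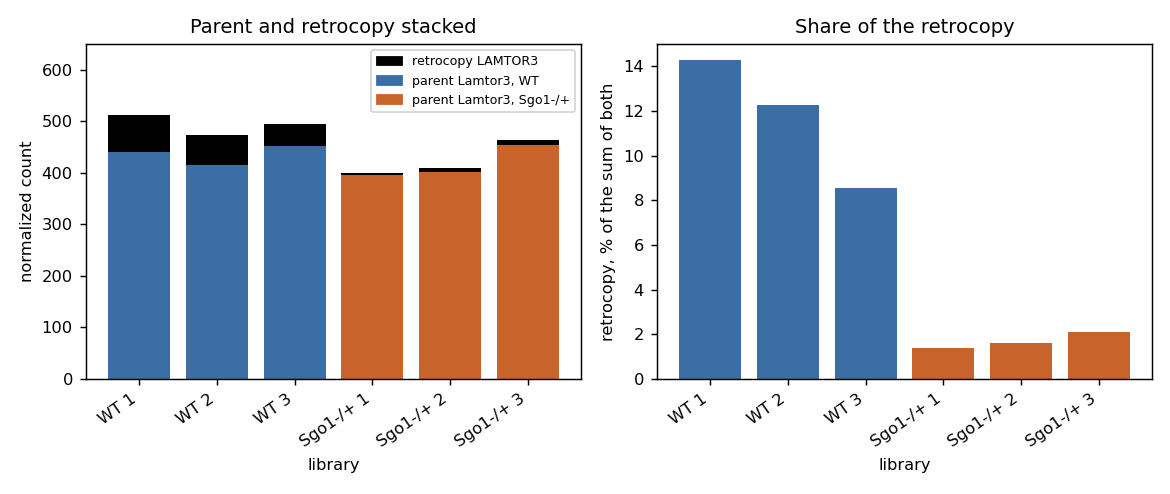
Left, normalized counts of the parent Lamtor3 (blue in WT, orange in Sgo1-/+) with those of the retrocopy LAMTOR3 (black) stacked on top, for each of the 6 libraries. Right, the retrocopy as a percentage of that sum, 8.54 to 14.3% in the WT and 1.36 to 2.09% in the Sgo1-/+ libraries, a difference by which the retrocopy was chosen.

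Most genes around the retrocopy had few or no counts. Of the 54 genes of the table within 500 kb on either side of it, 26 had no count in any library and 7 passed the filter on low counts, while 39 are olfactory receptor genes, which encode odorant receptors of the nasal epithelium. 22 of those 39 were among the genes without a count and none exceeded 6 estimated counts. The nearest entries on each side, Olfr669 at 9.70 kb and Olfr670 at 9.35 kb, had at most 1 count in any library. Nearest among genes that passed the filter were Trim12c, Trim30a and Trim30d on one side, members of an antiviral tripartite motif family, and Fam160a2, RP23-397L11.2 and Gm5901 on the other, all between 421 and 596 kb away. Their log2 fold changes ran from -0.46 (SE 0.461, Trim30d) to 0.06 (SE 0.181, Fam160a2), none with an unadjusted p under 0.05 in edgeR's quasi-likelihood test. RP23-397L11.2 was the only 1 of these 6 whose groups did not overlap, with 105, 106 and 125 normalized counts in WT and 96.7, 105 and 101 in Sgo1-/+ libraries, a separation of less than 1 count. Over all genes tested, 3.57% had Sgo1-/+ lower in every library and 3.28% had it higher.

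Around the parent, the nearest tested genes were Dnajb14, a co-chaperone gene 1.97 kb away, and Dapp1, an adaptor protein of phosphoinositide signalling 2.24 kb away. Dapp1 had 32.2, 62.5 and 63.4 normalized counts in WT and 81.7, 94.5 and 77.8 in Sgo1-/+ libraries, a log2 fold change of 0.68 (SE 0.299, edgeR unadjusted p = 0.0577, Benjamini-Hochberg adjusted p = 0.9999). Its groups did not overlap, with Sgo1-/+ higher. H2afz, a histone variant gene 51.6 kb away, had a log2 fold change of -0.11 (SE 0.0915) with Sgo1-/+ libraries all lower, and Dnajb14, Gm21962, 1110002E22Rik and Mttp overlapped between the groups. Groups were apart for 3.28% of all genes tested with Sgo1-/+ higher and for 3.57% with it lower. Whether nearness to the parent has a part in Dapp1 or H2afz was not tested.

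The 5 genes whose log2 normalized counts followed the retrocopy most closely over the 6 libraries, among 16168 compared, were Ndp (Pearson's r = 0.995), Tbx18 (0.995), Fam45a (0.990), Ndst2 (0.990) and Adamts5 (0.984). They lie on 5 chromosomes other than 7, and share with the retrocopy the libraries and the split between runs. Their sizes of difference varied, from a log2 fold change of -1.24 for Tbx18, a transcription factor gene of mural cells, to -0.15 for Fam45a. All 5 were higher in every WT library than in any Sgo1-/+ library, which with 6 points in 2 groups sets most of r.

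Among the 8 other genes of the machinery, none had an adjusted p under 0.05 in edgeR's quasi-likelihood test, against 0 of 16337 genes in the whole table (0%). At an unadjusted p under 0.05 the count was also 0 of 8, where 333 of 16337 genes (2.04%) passed. DESeq2's Wald test passed 3 genes and edgeR's likelihood ratio test 2 over all genes at an adjusted p under 0.05, with none of the 8 among them. In none of the 8 were the groups' libraries apart, where 3.57% of all genes had Sgo1-/+ lower in every library and 3.28% had it higher. Their log2 fold changes ran from -0.22 to 0.09, beside a median of -0.00 over all genes tested. The interval of each covered 0.

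**Figure D2:**
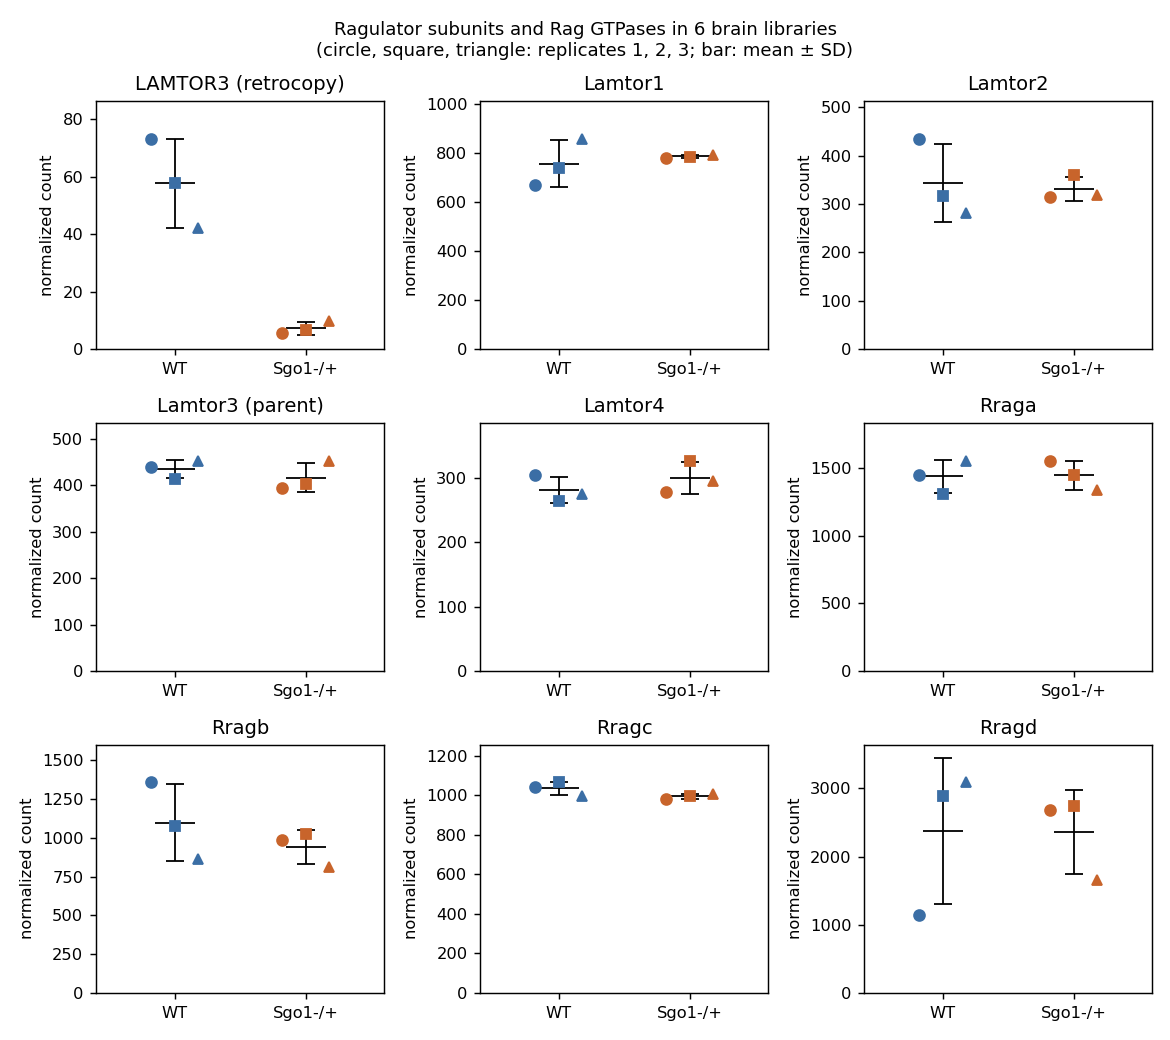
Normalized counts of the 9 genes in the 3 WT (blue) and 3 Sgo1-/+ (orange) libraries, with the mean ± SD of each group. The groups are apart for the retrocopy, which was chosen by that pattern, and overlap for the other 8, and Rragd has a low library in each group.

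Lamtor1, the subunit that ties Ragulator to the lysosomal membrane, had 668, 738 and 858 normalized counts in WT and 780, 785 and 792 in Sgo1-/+ libraries. The 3 Sgo1-/+ values lay close together and inside the WT range, with means of 754 ± 95.8 and 786 ± 6.12 (SD, n = 3 each). Its log2 fold change was 0.06 (SE 0.118, 95% interval -0.22 to 0.34, edgeR unadjusted p = 0.642), and -0.02 when WT replicate 1 was left out. Lamtor1 lies on the same chromosome as the retrocopy, 3.04 Mb away (chr7:101905837-101911901).

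Lamtor2, the partner of Lamtor3 in the MP1-p14 pair (chr3:88549819-88553074), had 435, 316 and 281 normalized counts in WT and 314, 361 and 319 in Sgo1-/+ libraries. WT replicate 1 was its highest library, and all 3 Sgo1-/+ values fell inside the WT range. The log2 fold change of -0.05 (SE 0.184, 95% interval -0.49 to 0.38) became 0.15 without that library. For Lamtor4 (chr5:138255608-138259398), of the other pair, the values were 304, 264 and 275 in WT and 278, 327 and 294 in Sgo1-/+ libraries, a log2 fold change of 0.09 (SE 0.127, 95% interval -0.21 to 0.39). Its partner Lamtor5, which the table lists as Hbxip and which was read as a gene of the pathway, had 489, 344 and 453 in WT and 362, 383 and 456 in Sgo1-/+ libraries, a log2 fold change of -0.10 (SE 0.169, 95% interval -0.50 to 0.30), or 0.01 without WT replicate 1. The libraries of both genes overlapped between the groups.

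Rraga, the gene for RagA (chr4:86575673-86577281), had 1453, 1312 and 1555 normalized counts in WT and 1558, 1449 and 1343 in Sgo1-/+ libraries. Both groups covered nearly the same range, and the log2 fold change was 0.01 (SE 0.113, 95% interval -0.26 to 0.28). Its X-linked relative Rragb, for RagB (chrX:153139981-153171943), ran from 862 to 1358 in WT and from 815 to 1023 in Sgo1-/+ libraries, with 1358, 1076 and 862 in the former and 989, 1023 and 815 in the latter. WT replicate 1 was again the highest. The log2 fold change of -0.22 (SE 0.185, 95% interval -0.66 to 0.22, edgeR unadjusted p = 0.273) was -0.04 without it, and -0.37 without WT replicate 3, the lowest of the WT libraries (edgeR unadjusted p = 0.0662). The coding sequences of Rraga and Rragb are identical at 82.7% of aligned bases with no identical run longer than 26 bases, against the 224 of Lamtor3 and its copy.

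The gene for RagC, Rragc (chr4:123917446-123936997), was the steadiest of the 9, with 1042, 1065 and 996 normalized counts in WT and 979, 994 and 1006 in Sgo1-/+ libraries. Its coefficient of variation over the 6 libraries was 3.21%, against a median of 17.6% over all genes tested. The log2 fold change was -0.06 (SE 0.0893, 95% interval -0.27 to 0.15), the narrowest interval of the 8.

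Rragd, for RagD (chr4:32983037-33022180), the alternative partner to RagC, varied most among the 8, with a coefficient of variation of 32.9%. It had 1150, 2893 and 3088 normalized counts in WT and 2683, 2738 and 1650 in Sgo1-/+ libraries, a 2.68-fold span between the lowest and the highest. WT replicate 1 and Sgo1-/+ replicate 3 were low and the other 4 libraries lay together, so that the spread ran within the groups and not between them. The group means were 2377 ± 1067 and 2357 ± 613 (SD, n = 3 each), a log2 fold change of -0.01 (SE 0.384, 95% interval -0.92 to 0.90). Leaving out the low library of WT gave -0.34, and leaving out that of Sgo1-/+ gave 0.19. In these bulk libraries fewer cells of a type and less RNA per cell cannot be told apart.

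The same 2 libraries had the highest levels of oligodendrocyte markers, genes of the myelin-forming cells. The summed level of the 8 markers, with Mbp among them, was 143182 normalized counts in WT replicate 1 and 135940 in Sgo1-/+ replicate 3, against 54904 to 79466 in the other 4 libraries. The cortex markers, 7 genes of cortical neurons, moved otherwise, with 4217 in WT replicate 1 but 17133, the highest of all, in Sgo1-/+ replicate 3. All of these markers were detected in every group, and their part in the Rragd values was not tested. Rragc, whose protein pairs with the same partners, was within a few percent of its mean in both libraries, and its coding sequence is identical to that of Rragd at 76.4% of aligned bases, with no identical run over 20 bases.

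**Figure D3:**
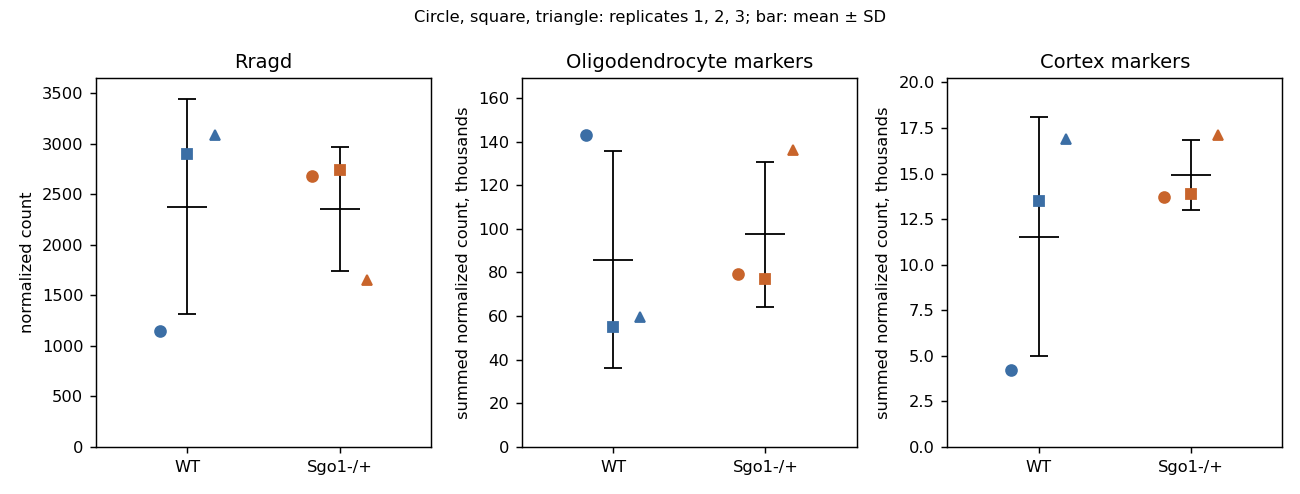
Rragd, the summed 8 oligodendrocyte markers and the summed 7 cortex markers in normalized counts (for the sums, divided by 1000 on the axis), by group with mean ± SD. WT replicate 1 (blue circle) and Sgo1-/+ replicate 3 (orange triangle) are lowest for Rragd and highest for oligodendrocyte markers, and lie at opposite ends for cortex markers.

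**Figure D4:**
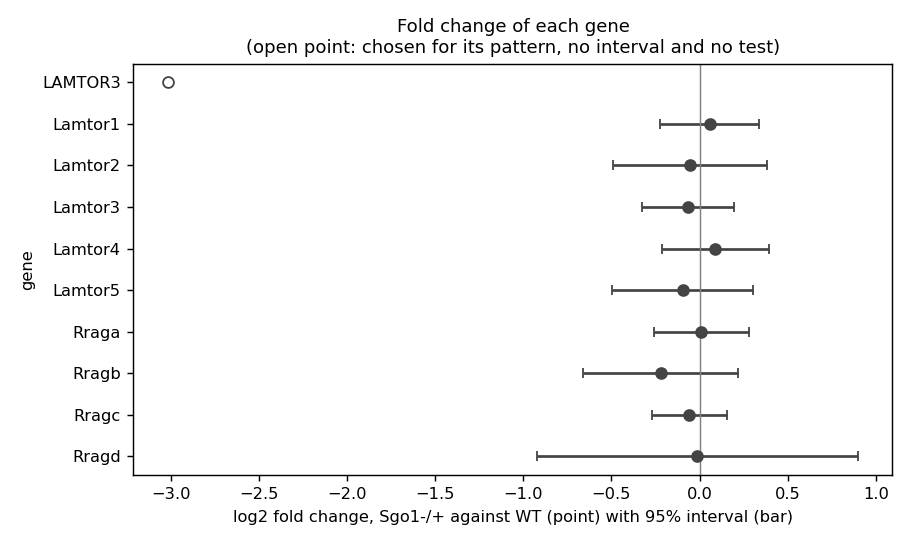
Log2 fold change of Sgo1-/+ against WT for the 9 genes and Lamtor5, with the 95% interval of edgeR's fit. The interval of each gene but the retrocopy covers 0, and the retrocopy, at -3.01, is drawn as an open point with no interval since it was chosen by this value.

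To set the genes in order, their mean normalized counts over the 6 libraries were divided by the length of their exons in kilobases (kb), so the values in this paragraph are levels per kb. Rraga was highest at 893 ± 63.6 (SD, n = 6 libraries), with every library above every library of the other genes. Lamtor5 (469 ± 66.8), Rragd (458 ± 150) and Rragb (452 ± 85.3) overlapped among themselves. Rragd, from 222 to 597 in single libraries, also overlapped with Rragc, Lamtor2, Lamtor1 and Lamtor4. Rragc (303 ± 9.74), Lamtor2 (277 ± 44.5), Lamtor1 (240 ± 19.6) and Lamtor4 (223 ± 17.5) followed, and Lamtor2 overlapped with each of the other 3. Lamtor3 was the lowest of the subunits at 103 ± 6.20, below every library of Lamtor4. Taking the longest annotated transcript as the length moved Lamtor1, Lamtor2, Lamtor3 and Lamtor4 up, Lamtor2 most of all to 505. Lamtor3 stayed the lowest of the subunits at 156. Lamtor5 stayed nearly the same at 470, and Rragc rose to 344. The order of Ragulator and Rag genes in the middle thus depends on the length used. Over its 375 annotated bases the retrocopy stood between 14.6 and 195 per kb in single libraries, with a mean of 86.7. Over the span of 1266 bases that the deposited table lists for it, the mean was 25.7. A longer true transcript than 375 bases would likewise lower this level.

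Genes around Ragulator were read from lists of the pathway that also were compiled with earlier results known. The table holds 104 such genes, of which 103 were tested, and 1 had an unadjusted p under 0.05 in edgeR's quasi-likelihood test (0.971%, against the 2.04% of all genes). The median log2 fold change over the 103 was 0.01. Libraries of the groups were apart with Sgo1-/+ lower for 6 of them (5.83%, against 3.57% of all genes) and higher for 1 (0.971%, against 3.28%). The lower genes were Itfg2, Kxd1, Wdr59 and Sec13 of the GATOR2 list, Rictor of the mTOR complexes and the effector gene Ulk1. The higher gene was Sqstm1. Leaving out WT replicate 1 gave 3 other genes at an unadjusted p under 0.05, which were Deptor and Pdcd4, lower, and Tfeb, higher, at log2 fold changes of -0.34, -0.38 and 0.60. That is 2.91% of the 103, against 3.77% of all genes in the same fit. In that fit 7 of 8 oligodendrocyte markers were higher in Sgo1-/+ at an unadjusted p under 0.05 (median log2 fold change 0.75) and 7 of 8 olfactory bulb markers were lower (median -2.14). With all libraries in, these medians were 0.25 and -1.60, and none of these markers had an unadjusted p under 0.05. The part of the markers in the values of the lists was not tested.

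The gene at an unadjusted p under 0.05 with all libraries in was Itfg2. It encodes a subunit of KICSTOR, the complex that brings the Rag inhibitor GATOR1 to the lysosome. It had 388, 322 and 348 normalized counts in WT and 311, 221 and 253 in Sgo1-/+ libraries, which did not overlap. The log2 fold change was -0.43 (SE 0.162, edgeR unadjusted p = 0.033, Benjamini-Hochberg adjusted p = 0.9999), and without WT replicate 1 it was -0.36 with an unadjusted p of 0.0683, no longer under 0.05. The other 6 tested genes of GATOR1 and KICSTOR had positive log2 fold changes, none with an unadjusted p under 0.05, such as 0.06 (SE 0.113) for Depdc5, the GATOR1 subunit that contacts the Rags. The median of the 7 was 0.05, and 0.00 without WT replicate 1.

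Upstream of the Rags, the 11 tested genes of GATOR2, which opposes GATOR1, and of its amino acid sensors had a median log2 fold change of -0.02 (-0.12 without WT replicate 1). Castor2, a relative of the arginine sensor gene Castor1, stood at 0.02 (SE 0.13) and the leucine sensor gene Sesn1 at -0.11 (SE 0.203). All 3 genes of the folliculin complex, which activates RagC and RagD, had negative values, -0.17 (SE 0.14) for Flcn and -0.03 (SE 0.141) for Fnip1 among them, with a median of -0.07 (-0.04 without WT replicate 1), and none passed the unadjusted threshold. For 20 genes of lysosomal amino acid sensing and anchoring the median was -0.04, which turned to 0.06 without WT replicate 1. Among them Sqstm1, the autophagy receptor p62, was apart between the groups, with 4960, 5130 and 5414 normalized counts in WT and 5482, 5844 and 5776 in Sgo1-/+ libraries. Its log2 fold change of 0.14 (SE 0.109) did not pass the test (edgeR unadjusted p = 0.234). Kxd1 was the only 1 of this list apart the other way, with 508, 506 and 530 in WT and 472, 402 and 462 in Sgo1-/+ libraries. The log2 fold change of Kxd1, -0.21 (SE 0.11), did not pass either (edgeR unadjusted p = 0.101). Slc3a2, the heavy chain of an amino acid exchanger, had a value of 0.13 (SE 0.15).

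The V-ATPase, the proton pump that binds Ragulator and on whose activity amino acid sensing depends, had 15 of 18 tested subunits with a positive log2 fold change and a median of 0.07, with none of the 18 at an unadjusted p under 0.05. Over all genes tested, 8138 of 16337 had a positive value. The largest of the 18 was 0.90 (SE 0.498) for Atp6v0c, which had 1415 normalized counts in Sgo1-/+ replicate 3 against 372 to 439 in the other libraries. The most abundant entries of the V-ATPase, Atp6v1b2 and Atp6v1a, stood at -0.01 (SE 0.135) and 0.01 (SE 0.128). Without WT replicate 1 the median of the 18 was 0.03.

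Downstream, the 11 genes of the mTOR complexes had a median log2 fold change of -0.09 (-0.02 without WT replicate 1), with -0.10 (SE 0.13) for the kinase gene Mtor and 0.10 (SE 0.0930) for Rptor, the mTORC1 subunit that binds the Rags. The 5 genes of the TSC complex and Rheb, the small GTPase that switches mTORC1 on, had a median of 0.00 (-0.02 without WT replicate 1), with 0.00 (SE 0.151) for Tsc1 and -0.04 (SE 0.0949) for Rheb. For 17 substrates and effectors the median was -0.00 (-0.03 without WT replicate 1), with -0.09 (SE 0.185) for the translation factor gene Eif4b and 0.01 (SE 0.0993) for the autophagy gene Rb1cc1. None of these 33 genes had an unadjusted p under 0.05 with all libraries in.

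Of the MAPK pathway partners of the MP1-p14 scaffold, 10 genes were tested and none passed, with a median log2 fold change of 0.04. Without WT replicate 1 that median turned to -0.09. Pak1, a kinase gene of this pathway, had a log2 fold change of 0.09 (SE 0.148).

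**Figure D5:**
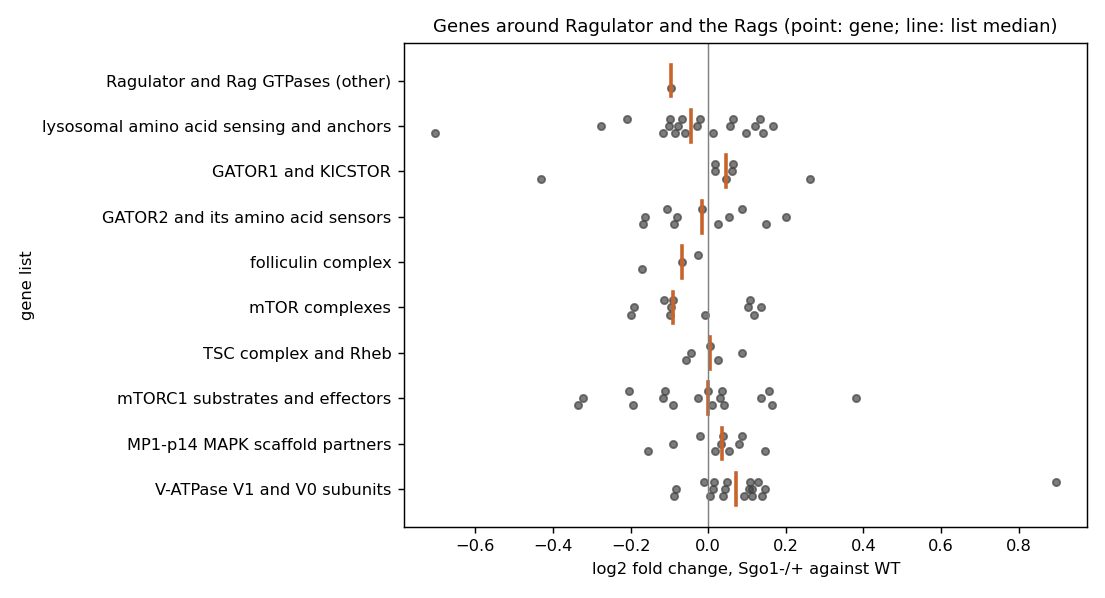
Log2 fold change of Sgo1-/+ against WT for 103 tested genes in 10 lists around Ragulator and the Rags, each point a gene and each line a list's median. The medians lie between -0.10, for the single gene Lamtor5, and 0.07, for the V-ATPase subunits.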

How the data were processed

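RNA of 6 mouse brains, 3 WT and 3 Sgo1-/+, was sequenced as paired-end reads with TruSeq V2 libraries on a MiSeq. The authors used Strand NGS for alignment to mm10 and deposited, without normalization, an estimated count per gene and library, of which 47.0 to 48.3% are not whole numbers. The submitters' processing notes also name BWA and edgeR. How reads that match several genes were shared, and whether strand was used, is not given in the sources used here. The table also holds 6 columns of normalized log2 values and the authors' fold changes, which were not used. Columns were matched to samples by name and checked against the labelled sexes.

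Estimated counts were rounded to whole numbers and fitted over 16337 of 38087 genes with edgeR 4.0.16 in R 4.3.3 (TMM, default filter, quasi-likelihood test, no covariates, Benjamini-Hochberg adjustment, threshold 0.05). The SE is the size of the log2 fold change divided by the square root of F. A normalized count is the estimated count over the library's effective (TMM) size, times the mean of that size. Single genes had exact two-sided permutation tests over 20 groupings. With 1 library per mouse, p-values set the difference between the groups against the spread between mice within them. That difference holds genotype and run together. A count of 0 allows up to 3 counts, counting error only. Alternatives were DESeq2 1.42.0, limma 3.58.1, edgeR's likelihood ratio test, other size factors and filters (none, or 10 counts or more in each library), sex, a replicate block and each library left out. The tests were checked on simulated counts.

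The members and lists were chosen with earlier results of these data known. Named are all members, Sgo1, Lamtor5, list genes with an unadjusted p under 0.05 and otherwise the 2 of highest mean per list, the 5 genes most like the retrocopy, and the 3 nearest tested genes on each side of retrocopy and parent. Deptor, Pdcd4, Tfeb, Kxd1, Wdr59, Sec13, Rictor, Ulk1, Atp6v0c, Olfr669, Olfr670, the marker genes and the further copies among the closing observations were named after their values were seen. Some genes that this rule names are not reported here. 4 list names (C12orf66, Kics2, Samtor, Cux2) had no match. Of these, C12orf66 and Kics2 are further names of BC048403 and Samtor of Bmt2, and both of those genes were tested. Sequences come from GENCODE M21 (GRCm38, the build of the files).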

Additional observations from a re-analysis of the deposited data

How the results depend on the processing

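No alternative brought any of the 8 other Ragulator and Rag genes to an unadjusted p under 0.05. The log2 fold change of the retrocopy stayed between -3.24 and -2.81. As that gene was chosen by its values in these same libraries, no support is read from this range. The retrocopy was lost to a filter that asked for 10 counts or more in each library. Over all genes, the count at an adjusted p under 0.05 was 0 with edgeR's quasi-likelihood test, 3 with DESeq2's Wald test, 2 with edgeR's likelihood ratio test and 0 to 1 with single libraries left out. The 333 genes at an unadjusted p under 0.05 became 563 with no filter and 240 to 1040 with single libraries left out, with 626 without WT replicate 1 and 1040 without WT replicate 3. The pathway lists had 3 genes in place of 1 without WT replicate 1. Small fold changes turned in sign. With single libraries left out the log2 fold change ran from -0.022 to 0.16 for Lamtor1, from -0.18 to 0.15 for Lamtor2, from -0.053 to 0.070 for Rraga and from -0.34 to 0.22 for Rragd. Lamtor5 turned to 0.01 without WT replicate 1, Rragb kept its sign at -0.37 to -0.04, and Rragd was at 0.077 with limma and at 0.091 with sex as a covariate. The cause of these turns was not tested.

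The deviations of same-numbered libraries correlated at -0.15, 0.01 and -0.21, and those of libraries with unlike numbers at -0.22 to 0.29. With 3 mice in each group these values cannot settle whether the replicate numbers pair the mice, and the main fit did not treat them as pairs. With the number as a replicate block, Rragd was at 0.072 and the count at an unadjusted p under 0.05 was 280, with 0 at an adjusted p under 0.05.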

Other observations

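For 2 other genes of the pathway, chosen after their values were seen, an annotated pseudogene had more counts than the gene itself. Rps6, the ribosomal protein that S6 kinase phosphorylates downstream of mTORC1, had 46.0 to 83.1 normalized counts per library, while its pseudogene Rps6-ps4 on chromosome 2 had 1370 to 1818, or 94.9 to 97.5% of the sum of both. Atp6v0c, the proteolipid subunit of the V-ATPase, had 381, 439 and 373 normalized counts in WT and 372, 436 and 1415 in Sgo1-/+ libraries. The entry annotated as its pseudogene Atp6v0c-ps2 on chromosome 6 had 4130, 4950 and 5676 in WT and 5400, 5419 and 4292 in Sgo1-/+ libraries. The sum of both was 4510 to 6050, and Sgo1-/+ replicate 3, high for Atp6v0c and low among its group for the copy, lay inside that range at 5706. Values of such single entries are thus uncertain as levels of the gene they name, and whether reads were moved between copies in single libraries was not tested.

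The E-box CACGTG, a letter pattern bound by the transcription factors TFEB and TFE3 among others and the same on both strands, was sought in RefSeq promoters of GRCm38.p6, from 250 bases before to 50 bases after the start of each gene. It was found in those of Lamtor1, Lamtor4, Rragb and Rragc and not in those of Lamtor2, Lamtor5, Rraga and Rragd, and in 2349 of 32851 promoters in all (7.15%). The longer form TCACGTGA was in none of these 8 promoters, and in 0.974% of all. Promoters of Lamtor3 and Gm5900 were not analysed here.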
